A study of Homo sapiens with 4 samples.

Results

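FAT4 is an atypical cadherin, a very large membrane protein whose extracellular cadherin repeats bind the related protein Dachsous on neighbouring cells. In flies the single orthologue Fat restrains tissue growth and orients cells within an epithelium, and part of the growth control runs through the Hippo kinases, which in mammals keep the coactivators YAP and TAZ out of the nucleus. When YAP and TAZ reach the nucleus they bind the TEAD transcription factors, and CTGF and CYR61 are their most used target genes.

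The comparison here is the late one of the study: A673 cells carrying an siRNA against FAT4, measured against A673 cells carrying a scrambled control siRNA, both 48 h after transfection. A673 is an established line of Ewing sarcoma, a bone and soft tissue tumour of the young, and expresses the fusion protein EWSR1-FLI1. Both groups were grown in DMEM with 10% fetal bovine serum, both received their siRNA with the lipid reagent RNAiMAX, and poly(A) RNA was sequenced. Each group is 1 library, and a matching pair of libraries taken at 24 h, which shares no library with the pair at 48 h, is given beside the late values. The siRNA sequence, the number of siRNAs used and whether the cultures of both times were transfected together were not given in the sources used here. With 1 library a side there is no spread between cultures to set a difference against, so no test was run and no p-value is given. Differences are described as ratios of CPM (counts per 1000000 gene counts, scaled between libraries by TMM), and the 95% intervals cover counting error only.

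Of 23228 genes in the files, 10595 reached a mean of at least 5 CPM over the 4 libraries, and these are the genes compared. Gene counts totalled 19614913 in the control library and 15413960 in the FAT4 siRNA library at 48 h, and 22625833 and 15196813 in the same order at 24 h. A count of 3, taken as the floor of detection, stood for 0.149 CPM in the 48 h control and 0.192 CPM in the 48 h FAT4 siRNA library. Of 8 Ewing sarcoma markers, 7 were present in all 4 libraries, among them NKX2-2, NR0B1, STEAP1 and PRKCB. The remaining marker, CD99, was listed at 0 in every library. Markers of epithelial, blood, endothelial, adipocyte and melanocyte cells summed to at most 1.54 CPM per cell type in the pair at 48 h. The skeletal muscle markers summed to 1.94 CPM in the control and 3.64 CPM with FAT4 siRNA, all of it from MYH3, while MYOD1, MYOG and DES had 0 counts. In bulk RNA, fewer cells of a kind and less RNA per cell cannot be told apart.

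The targeted transcript was lower. FAT4 stood at 148.7 CPM in the control and 60.2 CPM with FAT4 siRNA at 48 h, and at 164.6 and 71.8 CPM at 24 h. Both siRNA libraries lay below both controls. At 48 h FAT4 was 2.47-fold lower (95% counting interval 2.3 to 2.66), a ratio of 0.405.

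Past a fold, more genes were lower than higher at 48 h, although the middle of the distribution lay near a ratio of 1. Scaling between libraries places it there, so a shift of all genes together could not be seen. Of all compared genes 51% stood above the control and 49% below, 32.4% had a counting interval wholly above 1, and 31.8% had one wholly below. At least 2-fold lower were 160 genes (1.51%), against 63 genes (0.595%) that were at least 2-fold higher. At 1.5-fold the counts were 731 lower (6.9%) and 434 higher (4.1%), and these shares are the background for the list counts below. At 24 h the 2-fold counts were smaller, with 58 genes (0.547%) lower and 26 genes (0.245%) higher. Over genes, the SD of the log2 ratio was 0.380 (48 h) and 0.324 (24 h), and the median gene stood at 0.0084 on the log2 scale at 48 h. Of the compared genes 58.5% lay within 1.2-fold of the control at 48 h. Genes of low GC content had higher ratios. Spearman's rho between GC content and log2 ratio, across 10374 genes, was -0.231 (48 h) and -0.574 (24 h). The genes share the same libraries, so it is given without a test. A list of nuclear-retained RNAs and snoRNA host RNAs, whose levels vary with RNA quality, also differed in the pair at 48 h. Of these 13 RNAs 12 stood above the control, beside 51% of all genes, with a median log2 ratio of 0.39 against 0.07 at 24 h, and none passed 1.5-fold. NEAT1, the scaffold RNA of paraspeckles, was 726 CPM in the control and 1002 CPM with FAT4 siRNA. The part of GC content and of RNA quality in the gene group differences described here was not tested.

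**Figure D1:**
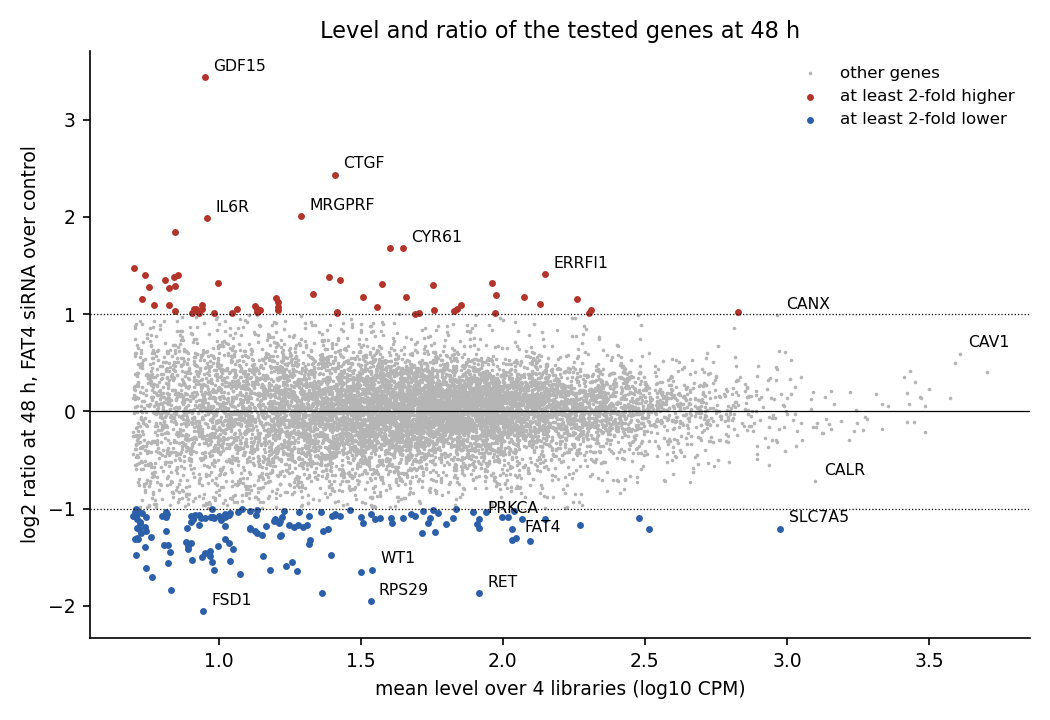
Log2 ratio of FAT4 siRNA over control at 48 h (vertical axis) against the mean level over 4 libraries (horizontal axis, log10 CPM), 1 point per compared gene. The 63 genes at least 2-fold higher are red and the 160 at least 2-fold lower are blue, dotted lines mark 2-fold, and GDF15 stands alone at a log2 ratio of 3.44.

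The highest ratio belonged to GDF15, a secreted stress-induced cytokine of the TGF beta superfamily. GDF15 stood at 2.88 CPM in the control and 31.2 CPM with FAT4 siRNA at 48 h, and at 0.851 and 0.879 CPM at 24 h. The FAT4 siRNA library at 48 h stood far above the other 3. The late ratio was 10.8 (95% counting interval 8.23 to 14.5) on counts of 58 and 488.

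Several cytokine and receptor genes had ratios among the 15 highest. IL8 (CXCL8), a neutrophil chemokine, stood at 4.22 CPM in the control and 15.2 CPM with FAT4 siRNA at 48 h, a ratio of 3.59 (interval 2.79 to 4.65). Its pair at 24 h stood at 3.49 and 5.14 CPM. IL6R, the ligand-binding chain of the interleukin 6 receptor, was 2.39 and 9.46 CPM at 48 h, a ratio of 3.97 (interval 2.85 to 5.61). TNFRSF12A, the receptor for the cytokine TWEAK, was 13.6 and 43.7 CPM, a ratio of 3.21 (interval 2.78 to 3.70). Both receptors were already higher at 24 h, by 1.35 (IL6R) and 1.16 (TNFRSF12A) on the log2 scale. IL20RB, a chain of the receptors for cytokines of the interleukin 20 family, went from 5.02 CPM in the control to 13.2 CPM with FAT4 siRNA at 48 h and was near even earlier, with the 24 h pair at 1.84 and 1.96 CPM. Over the list of cytokines and their receptors, 6 of 26 genes (23.1%) were at least 1.5-fold higher, beside 4.1% of all genes. At least 1.5-fold lower were 3 (11.5%), beside 6.9% of all genes, and the median log2 ratio was 0.01. The lower members were NGFR, CXCL16 and MIF. The median of the list did not lean to a side, although its share past 1.5-fold higher was above that of all genes.

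Other genes with the highest ratios have varied roles. MRGPRF, an orphan G protein-coupled receptor, was 5.67 CPM in the control and 22.8 CPM with FAT4 siRNA, a ratio of 4.03 (interval 3.25 to 5.02). ERRFI1, a feedback inhibitor of the EGF receptor, was 83.4 and 222.3 CPM, a ratio of 2.66 with a narrow interval of 2.51 to 2.83. GUCY1A2, a subunit of the soluble guanylate cyclase that nitric oxide activates, was 4.47 and 11.7 CPM, a ratio of 2.62. The peptide gene UTS2D (2.79-fold), the receptor GPRC5B (2.64-fold), TMEM189 (2.61-fold), the carboxypeptidase CPB2 (2.56-fold) and TTPAL (2.56-fold) complete the 15 highest ratios. TMEM189 has a read-through neighbour, so its count is uncertain.

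**Figure D2:**
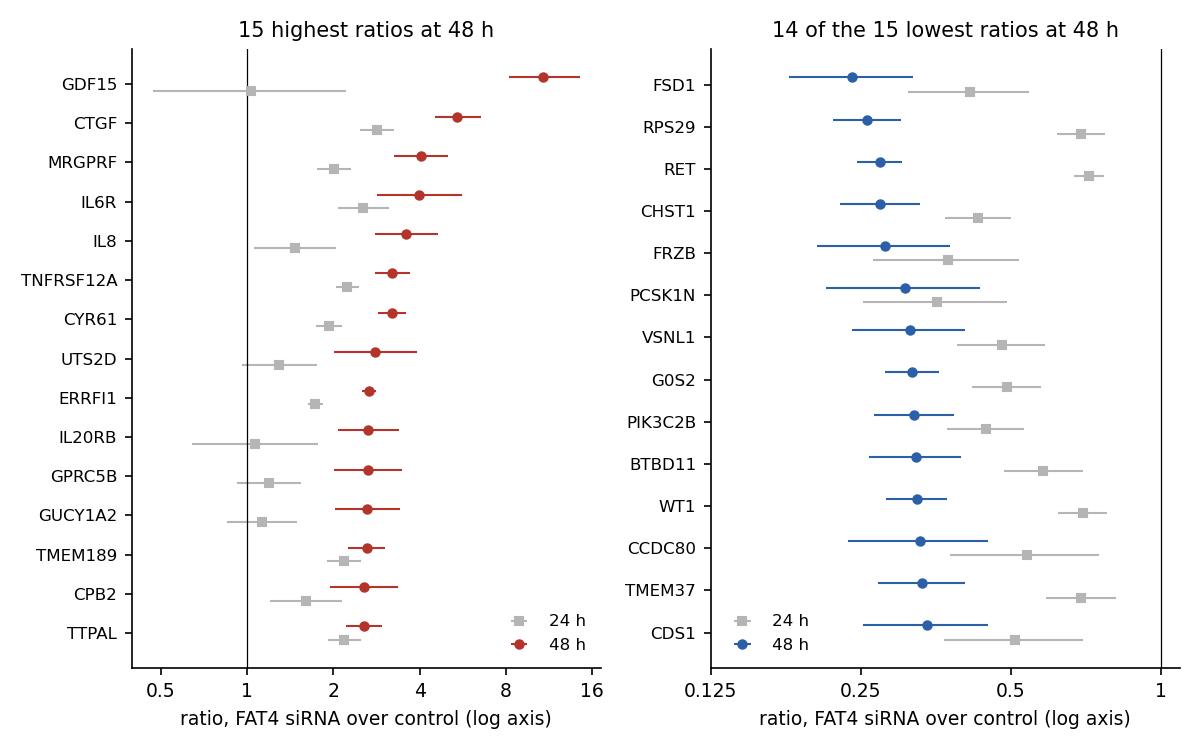
Ratio of FAT4 siRNA over control (log axis) for the 15 highest genes and 14 of the 15 lowest at 48 h, coloured circles for 48 h and grey squares for 24 h, with 95% counting intervals as bars. All late intervals shown lie clear of 1, while at 24 h GDF15, UTS2D, IL20RB, GPRC5B and GUCY1A2 have intervals that reach 1.

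A share of the YAP and TAZ target genes was higher. Of 19 compared members, 7 (36.8%) were at least 1.5-fold higher beside 4.1% of all genes, none was 1.5-fold lower, and the median log2 ratio was 0.48 against 0.25 at 24 h. CTGF (CCN2), a secreted matricellular protein, stood at 7.26 CPM in the control and 39.3 CPM with FAT4 siRNA at 48 h, and at 14.6 and 41.4 CPM at 24 h. Both FAT4 siRNA libraries held about the same level, and the 48 h control was the lowest of the 4. The ratio for CTGF was 5.41 (interval 4.51 to 6.53) at 48 h. CYR61 (CCN1), its close relative, was 21.3 and 68.3 CPM at 48 h and 30.4 and 58.5 CPM at 24 h, a late ratio of 3.20 (interval 2.86 to 3.59). NT5E, the ectonucleotidase CD73, was 46.7 and 107.2 CPM, a ratio of 2.29 (interval 2.12 to 2.49). WTIP, a LIM protein that binds the LATS kinases, was 2.49 and 5.31 CPM, a ratio of 2.14 (interval 1.49 to 3.10).

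CTGF is the gene most used to read TEAD activity, so its proximal promoter is shown. RefSeq promoters (build GRCh38.p14, 250 bases before to 50 after each start) were matched to 8596 compared genes, 12 of them in the list of YAP and TAZ targets. The TEAD core motif GGAATG, on either strand, was in 4 of these 12 promoters (33.3%) and in 10.2% of the 8596. CTGF and WTIP held 3 copies each, and LATS2 and PTPN14 held 1. The members with the motif had a median log2 ratio of 0.57 and those without it 0.53, so holding the motif did not separate the list. The 250 bases before the CTGF start, at chr6:131951373-131951622 on the minus strand, are printed with the motif copies in capitals:
CTGF: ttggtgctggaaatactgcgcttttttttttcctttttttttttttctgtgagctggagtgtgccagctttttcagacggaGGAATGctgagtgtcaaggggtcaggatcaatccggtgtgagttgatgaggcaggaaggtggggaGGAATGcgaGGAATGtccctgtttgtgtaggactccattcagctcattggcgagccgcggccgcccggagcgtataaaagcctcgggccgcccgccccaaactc

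The pathway components themselves differed little. None of the 21 compared Hippo genes passed 1.5-fold, and their median log2 ratio was -0.12 against 0.03 at 24 h. The farthest were TEAD1, a YAP partner, at 176.8 CPM in the control and 263.4 CPM with FAT4 siRNA (a ratio of 1.49), and NF2, the upstream regulator merlin, at 37.2 and 25.8 CPM (1.44-fold lower). FRMD6 and TEAD3 were 1.32-fold and 1.29-fold higher. YAP1, named here after its value was seen, was 289.9 and 296 CPM, with an interval of the ratio from 0.982 to 1.06. Among 19 genes of the Fat, Dachsous and planar polarity list, FAT4 and FAT3 were at least 1.5-fold lower and none was higher. FAT3, a paralogue, was 30.7 CPM in the control and 20.3 CPM with FAT4 siRNA at 48 h (1.51-fold lower, interval 1.32 to 1.73) and 28.2 and 29.3 CPM at 24 h. The receptor ROR2 and the polarity protein VANGL2 were 1.49-fold and 1.4-fold lower. The median of this list was -0.13, and it was 0.01 once the trend with GC content and length was taken out, so the list has no direction that holds.

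Some junction genes were lower. Of 23 compared cadherins and junction genes, 7 (30.4%) were at least 1.5-fold lower beside 6.9% of all genes, and none was 1.5-fold higher. The list was not lower throughout, since 8 members stood above the control, 7 of them with a counting interval clear of 1, and the median log2 ratio was -0.13. PKP2, a plaque protein of desmosomes, was 12.2 CPM in the control and 5.37 CPM with FAT4 siRNA (2.27-fold lower, interval 1.76 to 2.94). F11R, the junctional adhesion molecule A, was 8.80 and 4.09 CPM (2.15-fold lower, interval 1.61 to 2.91). CTNND1, the p120 catenin, was 6.46 and 3.07 CPM (2.11-fold lower). PKP2, F11R and CTNND1 were also lower at 24 h, by 0.54 to 0.70 on the log2 scale. Integrin and laminin genes were split. Of 13, 4 (30.8%) were at least 1.5-fold lower, beside 6.9% of all genes, and 2 (15.4%) higher, beside 4.1%. The lower ones were LAMA3 (1.98-fold), ITGB2 (1.75-fold), ITGB5 (1.69-fold) and LAMB3 (1.57-fold). LAMC1 and ITGB1 were 1.70-fold and 1.52-fold higher.

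Immediate early genes and feedback genes of MAP kinase signalling leaned higher at 48 h. Of 26, 7 (26.9%) were at least 1.5-fold higher, beside 4.1% of all genes, and 1 (3.85%) was lower, beside 6.9%. The medians were 0.21 (48 h) and -0.03 (24 h). EGR1, a zinc finger factor induced within minutes of growth factor signalling, was 44.6 CPM in the control and 109.7 CPM with FAT4 siRNA at 48 h, and 32.5 and 40.2 CPM at 24 h. The late ratio of EGR1 was 2.46 (interval 2.27 to 2.67). JUN and FOSL2, subunits of the AP-1 factor, were 2.27-fold (interval 2.04 to 2.52) and 2.08-fold (interval 1.71 to 2.53) higher. ZFP36, an mRNA decay factor, was 5.96 and 11.7 CPM, close to 2-fold. The lower member, ETV5 (named after its value was seen), was 76 and 42.9 CPM, 1.77-fold lower.

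The ATF4 and stress genes did not share a direction. ATF4 is the transcription factor whose translation the integrated stress response raises, and DDIT3 (CHOP) and TRIB3 are among its targets. DDIT3 was 58.9 CPM in the control and 125.4 CPM with FAT4 siRNA at 48 h (a ratio of 2.13, interval 1.98 to 2.29), and 46.1 and 54.2 CPM at 24 h. TRIB3, a pseudokinase, was 214.7 and 416.6 CPM at 48 h (a ratio of 1.94, interval 1.87 to 2.02), and 45 and 43.6 CPM at 24 h. In both genes the 48 h FAT4 siRNA library was the highest of the 4, and for TRIB3 the 48 h control also stood well above the pair at 24 h. SLC7A5, the large neutral amino acid transporter, went the other way. It was 1355 CPM in the control and 587 CPM with FAT4 siRNA at 48 h (2.31-fold lower, interval 2.25 to 2.36), and 1277 and 567 CPM at 24 h, though its pseudogene copies make the count uncertain. Over the list of 35 ATF4 targets, 6 (17.1%) were at least 1.5-fold higher, beside 4.1% of all genes. GDF15 is among these and also counts in the list of cytokines and receptors, so those shares are not separate. At least 1.5-fold lower were 3 (8.57%, SLC7A5, CEBPB and CBS), beside 6.9% of all genes, and the median was 0.03. Of 30 ATF4 target promoters, 5 (16.7%) held the composite motif TGATGNAA of ATF4 and C/EBP proteins, beside 1.56% of compared promoters. These 5 (CHAC1, SLC3A2, SLC7A1, ASNS and ATF3) had a median log2 ratio of -0.19, below the 0.03 of those without it.

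Chaperones and secretory pathway genes were split as well. CANX, the lectin chaperone calnexin, was 600.8 CPM in the control and 1192 CPM with FAT4 siRNA (a ratio of 1.98, interval 1.94 to 2.03), while CALR, its soluble relative calreticulin, was 1362 and 827.6 CPM (1.65-fold lower, interval 1.61 to 1.68). In the ER stress list of 27 genes, 3 (11.1%) were at least 1.5-fold higher (CANX, ERN1 and HSPA5), beside 4.1% of all genes. At least 1.5-fold lower were 2 (7.41%, CALR and SDF2L1), near the 6.9% of all genes. The medians were 0.16 (48 h) and -0.04 (24 h). By gain in CPM at 48 h the leading genes were CAV1 (2953 to 4453 CPM), FN1 (4573 to 6055), HSPA8 (2652 to 3735), HSP90AB1 (2085 to 2775), CANX and HSP90AA1 (2317 to 2864). CAV1 coats caveolae, FN1 is the matrix protein fibronectin, and the rest are chaperones. By loss they were SLC7A5, CALR, the elongation factor EEF2 (2920 to 2523 CPM), the desaturase FADS2 (2168 to 1771), the fatty acid synthase FASN (1440 to 1121) and the imprinted gene PEG3 (954.2 to 651.9).

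Most lipid synthesis genes stood a little below the control. Of 25 sterol synthesis genes 21 stood below it, beside 49% of all genes, and 20 of these had a counting interval wholly below 1, beside 31.8% of all genes. At least 1.5-fold lower were 4 (16%), beside 6.9% of all genes. Their log2 ratios had medians of -0.30 (48 h) and -0.18 (24 h). The 4 were TM7SF2, a sterol reductase (48.7 CPM in the control and 28.6 CPM with FAT4 siRNA), MVD (149.6 and 91.7 CPM), DHCR7, which makes cholesterol in its last step (540.3 and 332.2 CPM), and HSD17B7 (22.3 and 14.1 CPM). The SREBP motif TCACNCCAC, searched on both strands, was in 1 of 18 sterol synthesis promoters (5.56%), beside 1.1% of compared promoters. Of 21 fatty acid synthesis genes 18 stood below the control, with a median of -0.20. All 6 genes of the metallothionein list, which also holds the zinc exporter SLC30A1, stood below the control at 48 h. Only 3 had a counting interval wholly below 1. The median of the 6 was -0.45, against -0.04 at 24 h. Of them MT1X, a metal-binding protein, was 8.80 and 5.63 CPM at 48 h (1.56-fold lower, interval 1.2 to 2.04).

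**Figure D3:**
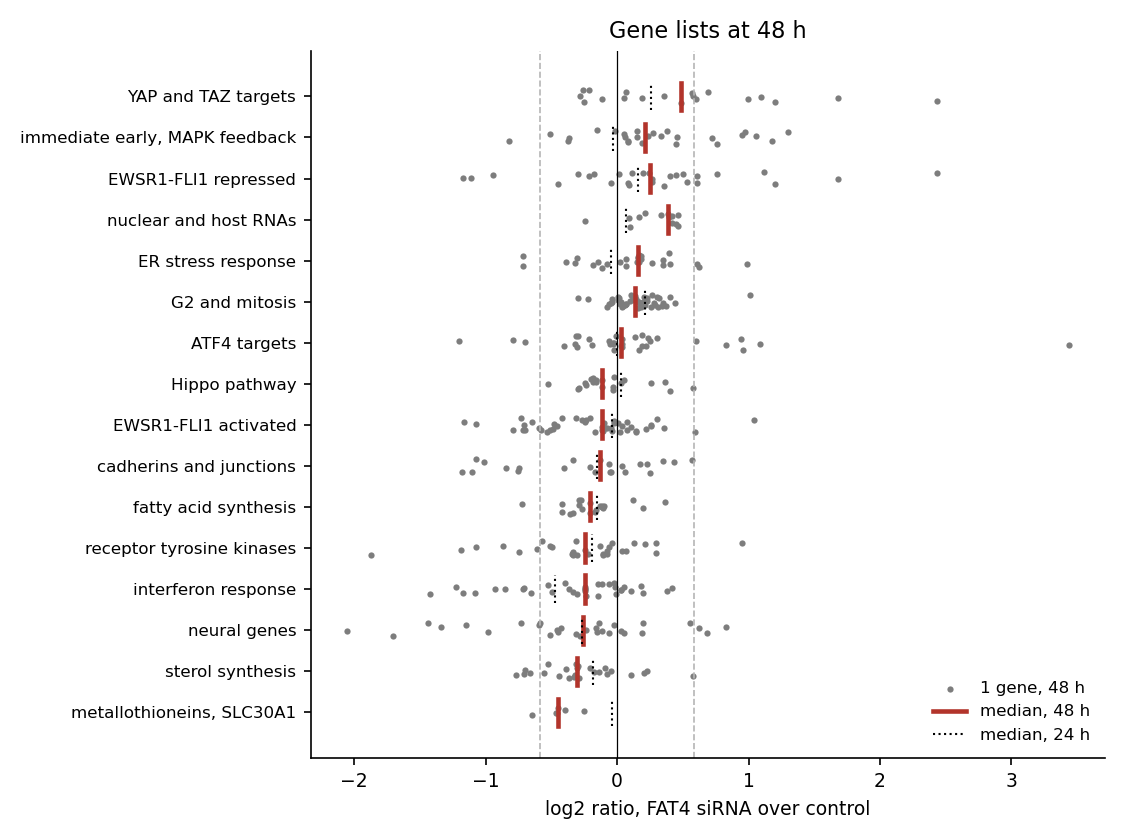
Log2 ratios at 48 h of the compared members (grey points, jittered vertically) of 16 gene lists, with the median at 48 h as a red bar and the median at 24 h as a dotted bar. Dashed lines mark 1.5-fold, and the medians at 48 h run from 0.48 for YAP and TAZ targets to -0.45 for the metallothionein list.

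Part of the interferon-induced genes was lower. Of 35, 9 (25.7%) were at least 1.5-fold lower beside 6.9% of all genes and none was higher at 48 h, and the median log2 ratio was -0.24. At 24 h, 14 were at least 1.5-fold lower and the median was -0.47. IFIT1, which binds foreign RNA lacking a methylated cap, was 7.70 CPM in the control and 2.88 CPM with FAT4 siRNA at 48 h (2.68-fold lower, interval 1.91 to 3.82), and 14.3 and 6.43 CPM at 24 h. IFI6, a small membrane protein, was 18.4 and 7.86 CPM (2.34-fold lower, interval 1.91 to 2.90). DDX60 and IFI44L were 2.26-fold and 2.12-fold lower. Both FAT4 siRNA libraries lay below both controls for IFI6, DDX60 and IFI44L, and for IFIT1 as well.

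The motif bound by the interferon-activated factors, the interferon-stimulated response element (ISRE), was searched in its short form, on both strands: GAAA, any pair of bases, then GAAA again. It was in 16 of 29 interferon-induced promoters (55.2%) and in 2.68% of the 8596 compared promoters. The 16 had a median log2 ratio of -0.57, and the other 13 list members with a promoter -0.24. Over all compared genes, by contrast, the 230 with the motif had a median of -0.0084 and those without it 0.013. The 3 lowest members of the list are shown, 250 bases before the start with the motif in capitals. They lie at chr10:89392373-89392622 (IFIT1, plus strand), chr1:27672193-27672442 (IFI6, minus strand) and chr4:168318753-168319002 (DDX60, minus strand), and hold 2, 3 and 2 copies:
IFIT1: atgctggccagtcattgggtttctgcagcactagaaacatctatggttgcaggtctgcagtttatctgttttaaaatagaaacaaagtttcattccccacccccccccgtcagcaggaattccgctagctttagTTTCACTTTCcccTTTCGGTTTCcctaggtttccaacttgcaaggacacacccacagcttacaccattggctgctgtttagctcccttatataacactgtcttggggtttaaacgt
IFI6: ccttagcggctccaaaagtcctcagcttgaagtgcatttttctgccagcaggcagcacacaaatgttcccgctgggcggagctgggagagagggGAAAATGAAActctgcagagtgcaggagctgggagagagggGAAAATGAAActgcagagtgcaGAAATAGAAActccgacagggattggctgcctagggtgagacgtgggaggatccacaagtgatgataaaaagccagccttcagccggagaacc
DDX60: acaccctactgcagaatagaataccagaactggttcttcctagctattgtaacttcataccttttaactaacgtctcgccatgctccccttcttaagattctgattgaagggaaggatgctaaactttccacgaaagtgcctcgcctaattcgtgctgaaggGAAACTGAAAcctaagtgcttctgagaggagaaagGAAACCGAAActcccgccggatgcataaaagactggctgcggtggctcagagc

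A list on sensing of foreign nucleic acid was added after the values were seen, and also holds genes that are not sensors themselves. Of its 15 compared genes 4 (26.7%) were at least 1.5-fold lower, beside 6.9% of all genes, and none was higher. SAMHD1, a dNTP hydrolase that restricts viruses, was 21.8 CPM in the control and 7.42 CPM with FAT4 siRNA (2.94-fold lower, interval 2.39 to 3.63). TMEM173, which encodes the adaptor STING, was 43.4 and 19.6 CPM (2.21-fold lower, interval 1.94 to 2.53). The guanylate-binding proteins GBP1 and GBP2 were 2.15-fold and 2.16-fold lower. GBP2 was not lower at 24 h, when it stood at 6.40 CPM in the control and 6.63 CPM with FAT4 siRNA.

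The list of neural genes held the lowest ratio. FSD1, a microtubule-binding protein, was 15.95 CPM in the control and 3.84 CPM with FAT4 siRNA at 48 h (4.16-fold lower, interval 3.15 to 5.57), the lowest ratio of all compared genes. PCSK1N, an inhibitor of prohormone processing, was 3.26-fold lower (interval 2.31 to 4.70), and the brain carnitine palmitoyltransferase CPT1C was 16.5 and 6.07 CPM, 2.72-fold lower. RTN1, a neuronal reticulon, was 2.54-fold lower. In the list of 30 neural genes, 9 (30%) were at least 1.5-fold lower beside 6.9% of all genes and 3 (10%) higher beside 4.1%, with a median log2 ratio of -0.26 against -0.27 at 24 h. The members that were higher were STX1A, NEFH and SCG2.

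RET, the receptor tyrosine kinase for GDNF family ligands, had a much lower ratio at 48 h than at 24 h. It stood at 106.4 CPM in the control and 29 CPM with FAT4 siRNA at 48 h (3.67-fold lower, interval 3.31 to 4.07), and at 113.6 and 81.6 CPM at 24 h. The 2 controls were close and the late FAT4 siRNA library was the lowest. NGFR, the low-affinity neurotrophin receptor, was 98 and 47.8 CPM at 48 h (2.05-fold lower), its partner SORT1 was 159.6 and 75 CPM (2.13-fold lower), and ARTN, a ligand of the RET complex, was 30.6 and 14.8 CPM (2.07-fold lower). RET, NGFR, SORT1 and ARTN come from a neurotrophin and GDNF list that was put together after their values were seen, so their low ratios are only a description. Of 31 receptor tyrosine kinases, 6 (19.4%) were at least 1.5-fold lower, beside 6.9% of all genes, and 1 (3.23%) higher, beside 4.1%. Their median was -0.24. KIT, the receptor for stem cell factor, was 2.10-fold lower (interval 1.81 to 2.44) and the ephrin receptor EPHB3 1.82-fold lower, whereas FGFR3, named after its value was seen, was 4.82 and 9.33 CPM, a ratio of 1.94.

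Other genes among the lowest were RPS29, a ribosomal protein (3.88-fold lower, at 47.1 and 12.15 CPM), the sulfotransferase CHST1 (3.66-fold), the secreted WNT antagonist FRZB (3.57-fold), the calcium sensor VSNL1 (3.19-fold), the lipolysis inhibitor G0S2 (3.15-fold) and the lipid kinase PIK3C2B (3.13-fold). WT1, a zinc finger factor of kidney development, was 50 CPM in the control and 16.2 CPM with FAT4 siRNA at 48 h (3.09-fold lower, interval 2.69 to 3.56), and 42.7 and 29.7 CPM at 24 h. BTBD11, CCDC80, TMEM37 and CDS1 were 2.95-fold to 3.10-fold lower. RPS29 has many pseudogene copies, and the median log2 ratio of 72 cytosolic ribosomal protein genes was -0.03. Its low count therefore stands apart from the rest of the ribosomal genes and is uncertain.

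Genes of the EWSR1-FLI1 programme differed in part. EWSR1-FLI1 is the fusion transcription factor that drives Ewing sarcoma. Of 47 genes known to be activated by the fusion, 9 (19.1%) were at least 1.5-fold lower, beside 6.9% of all genes. At least 1.5-fold higher were 2 (4.26%, GLI1 and CAV1), near the 4.1% of all genes, and the median log2 ratio was -0.11. NKX2-2, a homeobox factor and Ewing marker, was 86 CPM in the control and 38.4 CPM with FAT4 siRNA at 48 h (2.24-fold lower, interval 2.04 to 2.46), and 76.4 and 52.4 CPM at 24 h. KIT and PPP1R1A, an inhibitor of protein phosphatase 1, were 2.10-fold and 1.73-fold lower. GLI1, the hedgehog pathway factor, was higher at 48 h, at 11.7 and 24.1 CPM (a ratio of 2.06, interval 1.74 to 2.43), and 10.9 and 9.27 CPM at 24 h. The ETS repeat motif GGAAGGAA, searched on both strands, was in 1 of 38 promoters of the activated genes (2.63%, CAV1). It was in 3.29% of compared promoters. The fusion's own transcript cannot be read from gene counts. FLI1 was 81.2 CPM in the control and 97.2 CPM with FAT4 siRNA, and EWSR1 was 222.1 and 233.8 CPM, at 48 h. Of 28 genes known to be repressed by the fusion, 7 (25%) were at least 1.5-fold higher, beside 4.1% of all genes. At least 1.5-fold lower were 3 (10.7%, TIMP3, PRKCA and IGFBP5), beside 6.9% of all genes, and the median was 0.25. CTGF, CYR61 and NT5E count both here and among the YAP and TAZ targets, so these lists are not separate evidence. TIMP3, a metalloproteinase inhibitor, went the other way, at 23 and 10.2 CPM (2.25-fold lower, interval 1.88 to 2.71).

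Cell cycle, death and zinc finger groups showed small or mixed differences. Of 49 genes of G2 and mitosis 42 stood above the control, beside 51% of all genes, with medians of 0.13 (48 h) and 0.21 (24 h), but HMMR alone passed 1.5-fold (68 and 137.4 CPM, a ratio of 2.02). These genes are also low in GC content (median 43.2%), and with the trend in GC content and length taken out their median was 0.09. Among 26 apoptosis genes, BCL2, an inhibitor of apoptosis, was 43.2 CPM in the control and 79.3 CPM with FAT4 siRNA (a ratio of 1.84). BAK1 and BAD, which promote it, were 2.42-fold and 1.83-fold lower. Of 341 zinc finger genes named ZNF, counted after the values were seen, 43 (12.6%) were at least 1.5-fold higher, beside 4.1% of all genes. At least 1.5-fold lower were 4 (1.17%, ZNF792, ZNF671, ZNF618 and ZNF428), beside 6.9% of all genes. The medians were 0.18 (48 h) and 0.19 (24 h). Their median transcript GC content was 44.3%, below the 48.1% of all compared genes, and with the trend in GC content and length taken out their median was 0.16.

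Hedgehog, WNT and NOTCH genes gave short lists with few members past 1.5-fold. In the hedgehog list of 12, GLI1 and BCL2 were higher, whereas GAS1, a coreceptor of hedgehog ligands, was 116.7 CPM in the control and 67.4 CPM with FAT4 siRNA (1.73-fold lower), and the factor GLI2 was 19.6 and 12.7 CPM (1.55-fold lower). So GLI1, itself a hedgehog target, was higher while GLI2 was lower in the same library. Of 11 WNT genes 3 (27.3%) were at least 1.5-fold lower, beside 6.9% of all genes. They were FRZB, the R-spondin receptor LGR5 (6.96 and 3.71 CPM) and the DKK receptor KREMEN1 (29.5 and 18.5 CPM). Of 12 NOTCH genes, LFNG (1.88-fold) and NOTCH2 (1.5-fold) were lower (16.7%, beside 6.9% of all genes). In the TGF beta list of 21, the coreceptor TGFBR3 was 1.51-fold lower. These medians all lay between -0.12 and 0.03 on the log2 scale.

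Lysosomal membrane proteins were higher as a pair. LAMP1 was 121.3 CPM in the control and 245.3 CPM with FAT4 siRNA (a ratio of 2.02, interval 1.92 to 2.13), and LAMP2 was 76.5 and 172.8 CPM (a ratio of 2.26, interval 2.12 to 2.41). Of the whole lysosome list of 33 genes, they and the thioesterase PPT1 were at least 1.5-fold higher (9.09%, beside 4.1% of all genes). The protease CTSK was 1.71-fold lower and alone in passing 1.5-fold lower (3.03%, beside 6.9% of all genes). The list median was 0.06. ANXA1, a phospholipid-binding annexin, was 402 and 819.1 CPM (a ratio of 2.04, interval 1.98 to 2.10) and was alone past 1.5-fold among 12 annexins. It was already higher at 24 h, at 462.5 and 1014 CPM.

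Targets of NRF2, the factor that responds to oxidants, split by gene family. The aldo-keto reductases AKR1C1, AKR1C2 and AKR1C3 were 2.1-fold, 2.05-fold and 1.91-fold lower, while the quinone reductase NQO1 (48.1 and 79.4 CPM), the ferritin chain FTL and GCLM, a subunit of the first enzyme of glutathione synthesis, were 1.65-fold, 1.54-fold and 1.51-fold higher. The 3 reductases are near copies of each other, so reads may be split between them. Of the 24 genes 12.5% were at least 1.5-fold higher, beside 4.1% of all genes, and 12.5% lower, beside 6.9%. The median of the list was -0.002. In the RNA interference machinery, 3 of 16 genes (18.8%) were at least 1.5-fold lower, beside 6.9% of all genes. They were the GW182 protein TNRC6C (34.1 and 17.5 CPM), TARBP2 (34.8 and 21.3 CPM) and DICER1, which cuts microRNA precursors (216.2 and 142.3 CPM). All 3 were also lower at 24 h. The RNA polymerase III list was opposed within itself, with POLR3G at 12.2 and 28.3 CPM (a ratio of 2.32) and POLR3B at 31.5 and 16.5 CPM (1.91-fold lower). Among 35 splicing factors MBNL1 (109.4 and 212.2 CPM, a ratio of 1.94) and QKI (1.71-fold) were higher and HNRNPA0 was 1.62-fold lower. The shares past 1.5-fold were 5.71% higher and 2.86% lower, beside 4.1% and 6.9% of all genes.

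Large housekeeping groups stayed close to the control. Of 70 oxidative phosphorylation genes 1 (1.43%) passed 1.5-fold (UQCR10, 1.92-fold lower), beside 6.9% of all genes lower, and the median log2 ratio was -0.08. None of 20 aminoacyl-tRNA synthetases passed 1.5-fold, with a median of 0.10. Of 39 chromatin regulators CHD7 alone did (1.58-fold higher, 2.56% of the list beside 4.1% of all genes). In S phase 2 of 49 genes (4.08%) were at least 1.5-fold higher, FEN1 and PRIM1, near the 4.1% of all genes, and the median was 0.08.

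The pair at 24 h mostly showed the same directions on a smaller scale. Of the 63 genes at least 2-fold higher at 48 h, 61 were higher at 24 h too, and 13 had already passed 2-fold. Of the 160 lower genes 156 were lower at 24 h, and 31 had passed 2-fold. For the higher set the median log2 ratio was 1.11 late and 0.68 early, and that of the lower set -1.16 and -0.68. These sets were chosen at 48 h, so a smaller median at 24 h is in part fixed by the choice. Counting intervals of the difference between the times lay beyond 0 towards a larger late ratio for 44 of the 63 and 101 of the 160. There is no residual degree of freedom for a test of that difference.

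**Figure D4:**
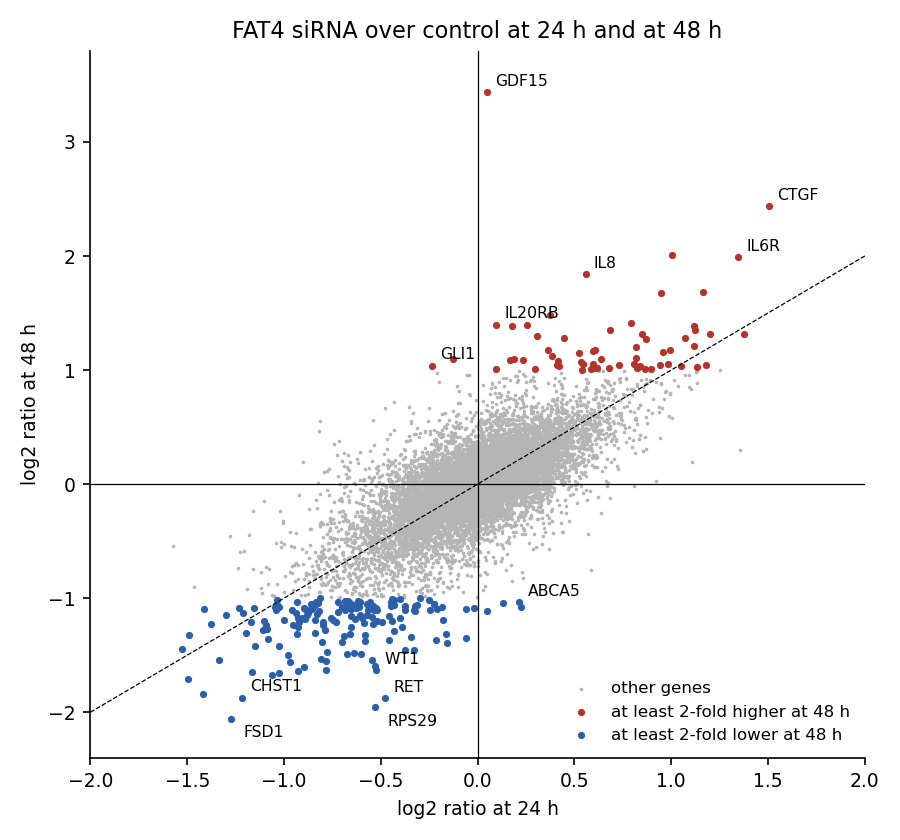
Log2 ratio of FAT4 siRNA over control at 24 h (horizontal axis) and at 48 h (vertical axis), 1 point per compared gene, with equal ratios on the dashed line. Genes at least 2-fold higher (red) or lower (blue) at 48 h mostly lie on the same side of 0 at 24 h, and GDF15 lies at 0.05 and 3.44.

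The late genes, near even at 24 h and past 2-fold at 48 h, were few: 10 of the 63 higher and 17 of the 160 lower genes lay within 1.2-fold of the control at 24 h. After GDF15, whose log2 ratio was 3.39 larger at 48 h (interval 2.30 to 4.48), the most positive differences were IL20RB (1.30), IL8 (1.28), GLI1 (1.28), TMEM143 (1.22), GUCY1A2 (1.21), GPRC5B (1.14) and UTS2D (1.11). The most negative were RPS29 (-1.42), RET (-1.40), the aldo-keto reductase AKR1C1 (-1.30), LOC150381 (-1.29), the lipid transporter ABCA5 (-1.25), the phospholipase PLCB4 (-1.24), the phosphodiesterase PDE1A (-1.17) and GBP2 (-1.16). Several of these rest on low counts. PLCB4, for example, stood at 7.06 CPM in the control and 2.69 CPM with FAT4 siRNA at 48 h, and the interval of its difference ran from -1.86 to -0.61. In RET (interval -1.57 to -1.22) it was narrow.

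Some 3' UTR words went with the ratios. Words of 7 bases that earlier work on these ratios had singled out were searched in the 3' UTRs of 10021 compared genes (GENCODE release 29), so what follows is a description of words picked for this pattern. TTGGACT or TGGACTA was in the UTRs of 1526 genes (15.2%). Their median log2 ratio at 48 h was -0.067, against 0.016 in genes without either, and 11.9% against 6.12% were at least 1.5-fold lower. Among genes at least 2-fold lower, 43 of 154 (27.9%) held it, and among those at least 2-fold higher 7 of 59 (11.9%). AGCCTTA was in 1039 genes (10.4%), with a median of 0.072 against -0.003 and with 8.28% against 3.53% at least 1.5-fold higher. Of the 59 genes 2-fold higher, 15 (25.4%) held it, and so did 15 of the 154 genes 2-fold lower (9.74%). At 24 h the medians with and without were -0.042 and -0.008 for the first pair of words, and 0.112 and -0.026 for AGCCTTA.

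Genes with these words had longer UTRs (medians of 2993 and 3012 bases, against 1005 and 1052 without). Their GC content was lower (medians of 44.2% and 43.5%, against 49.1% and 48.7%). Among UTRs of at least 2000 bases, GC medians were 42.8% with and 43.5% without the first pair, and 42.3% and 43.6% for AGCCTTA. UTRs with the words were still longer there (medians of 4296 and 4076 bases, against 3102 and 3224). Of these genes 10.5% with the first pair and 5.9% without it were at least 1.5-fold lower. At least 1.5-fold higher were 7.5% with AGCCTTA and 3.6% without it. The part of UTR length and GC content in the pattern was not tested. The first match in FAT4 and in genes among the lowest and highest ratios is printed below in a window of 30 bases with the word in capitals. The genes printed all go with the pattern, but others at the extremes went against it. FSD1, the lowest ratio, held AGCCTTA, and FRZB held both kinds of word. Among the highest, UTS2D, GUCY1A2 and TMEM189 held the first pair, GUCY1A2 and TMEM189 together with AGCCTTA. FAT4, the siRNA target, held 2 copies of the first pair in its UTR of 1164 bases, PIK3C2B held 2, and TTPAL held 3 copies of AGCCTTA:
FAT4: aacaggccagtaTGGACTAgtggtggaggg
VSNL1: acaaatattgcTTGGACTAcctataaatgg
G0S2: ctgttttttatTTGGACTtaacttcagaga
PIK3C2B: aggaagactatTTGGACTttttgtatgatt
TTPAL: caaatccataaAGCCTTAgccctggttctc
EGR1: tgctcacctctAGCCTTAaggggggcaggg

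**Figure D5:**
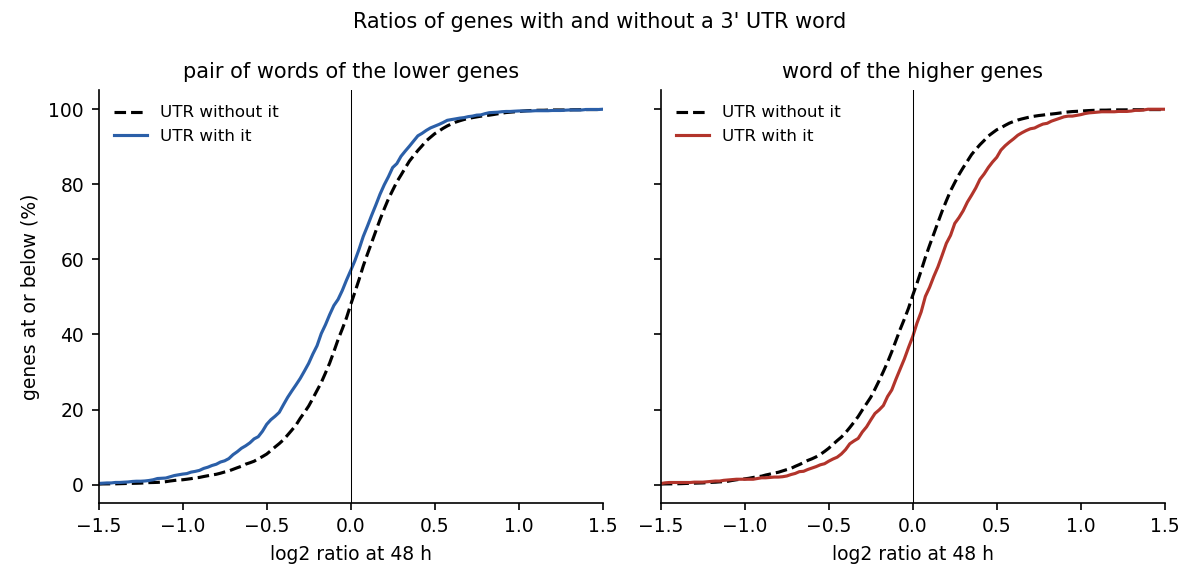
Share of genes at or below each log2 ratio at 48 h (percent), for genes whose 3' UTR holds the word (solid) and genes without it (dashed), for the pair of words of the lower genes (left) and the word of the higher genes (right). The solid curve lies to the left of the dashed one on the left panel (medians -0.067 and 0.016) and to the right of it on the right panel (medians 0.072 and -0.003).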

How the data were processed

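RNA of 4 libraries of A673 cells was measured, 1 for each siRNA and time. The authors deposited whole-number counts of reads per gene from a stranded kit, and per the submitters' processing notes CASAVA 1.8.2, TopHat2, HTSeq, SAMtools and the build hg19 were used. Annotation, counting mode and strand setting were not given in the sources used here, so overlapping, antisense and copied genes are uncertain. The 5 counter entries, among them reads outside genes (19.5% to 20.5%), were left out.

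From the counts, TMM factors (0.973 to 1.03) came from edgeR 4.0.16 in R 4.3.3 over the 13712 genes kept by filterByExpr, and ratios from scaled CPM with nothing added. Ratio intervals are exact 95% Clopper-Pearson intervals, and those of differences between the times use a normal approximation. Both cover counting error only. Interval coverage was checked on simulated data.

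Named genes were FAT4, the 15 highest and 15 lowest ratios, the 6 largest CPM gains and losses, the 8 largest differences between the times in each direction among genes past 2-fold, and up to 4 genes per list with the largest log2 ratios. Not all of these are reported. The genes and the 44 lists (1452 of 1470 entries matched) were chosen with earlier results of these data known, and 3 lists were added after seeing values. Transcripts of GENCODE release 29 matched 97.9% of genes and served for GC content, length and UTRs. The alternatives were other scalings, a filter on low values, CPM plus 1 and removal of the GC and length trend.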

Additional observations from a re-analysis of the deposited data

Results flagged for a closer look

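For 6 genes past 2-fold at 48 h the 24 h pair pointed the other way. With 1 library per siRNA and time the differences were not tested. The log2 ratio at 48 h minus that at 24 h was 1.28 for GLI1 and 1.22 for TMEM143, both higher at 48 h and slightly lower at 24 h. It was -1.30 for AKR1C1, -1.25 for ABCA5, -1.17 for PDE1A and -1.16 for GBP2, all lower at 48 h. Of the 24 h ratios, that of ABCA5 alone had a counting interval clear of 1 (1.01 to 1.34).

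Of 47 gene lists 10 had medians of opposite sign at the 2 times, also untested, and 7 of these were within 0.15 of 0 at 48 h. The other 3 are given here. The median at 48 h minus that at 24 h was 0.245 for the immediate early and MAPK feedback list, 0.199 for the ER stress list and -0.182 for the IGF axis. In the IGF axis, 5 of 13 genes (38.5%) were at least 1.5-fold lower at 48 h, beside 6.9% of all genes (IGFBP5, IGFBP4, IGF1, IRS2 and IGF2BP1). IGF1 stood at 28.2 CPM in the control and 17.2 CPM with FAT4 siRNA at 48 h, and at 29.6 and 33.3 CPM at 24 h. With the trend in GC content and length removed, 3 of the 13 were at least 1.5-fold lower and the median of the IGF axis went from -0.15 to -0.01. The shift between the times was also 0.203 for the NOTCH list, whose medians were 0.03 (48 h) and -0.17 (24 h).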

How the results depend on the processing

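Counts past a fold followed the filter on low values. With a mean of at least 1 CPM, 158 genes were at least 2-fold higher and 343 lower, and 724 and 1141 at 1.5-fold. With a mean of at least 20 CPM the counts were 29, 56, 226 and 386 in the same order. With at least 1 count in both libraries at 48 h they were 664, 851, 1518 and 2071. These filters differ in how many genes are compared and how deeply those are counted. Under no scaling factor, TMM over the pair at 48 h, median-of-ratios size factors, upper quartile factors, CPM plus 1, the trend in GC content and length removed, and a mean of at least 5 CPM over the pair at 48 h, each count stayed within 1.5 times. With CPM plus 1, 42 genes were 2-fold higher and 115 lower. The FAT4 ratio lay between 0.400 and 0.431 under every setting. None of the 208 gene ratios followed changed direction, and 44 left their counting interval with the GC and length trend removed. With the GC and length trend removed 7 of 47 list medians changed sign. Of these 6 were within 0.1 of 0 before (-0.085 to 0.036) and lay at -0.037 to 0.162 after, and that of the Fat, Dachsous and planar polarity list went from -0.13 to 0.014. The cause was not tested. Leaving out a replicate was not possible with 1 library per group. No paired analysis was possible because the labels give no replicate numbers. Culture-to-culture spread is unknown, and depth limits genes under about 5 CPM.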
